A study of Mus musculus with 21 samples.

Results

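Valine is read by 3 tRNA isoacceptors in the mouse, tRNAs that carry the same amino acid and differ in the anticodon: ValAAC, ValCAC and ValTAC. Their members were all tRNA loci whose deposited name ends in one of these anticodons. There were 106 such loci among 3283 counted for RNA polymerase III (Pol III) binding (56 ValAAC, 37 ValCAC and 13 ValTAC), and 21 genes among 1143 in the tRNA sequencing table (10, 10 and 1). For 19 loci a position in the mm9 genome could be given, of 256 tRNA loci positioned in all, and 357 of their cytosines were listed by RNA bisulphite sequencing among 897815 in the whole series.

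The material was total back skin of male mice at postnatal day 25, when hair follicles are in anagen, on a C57Bl6/J CBA F1 background. NSun2-/- mice carried a gene trap in the Nsun2 gene, and wild-type (WT) mice came from the same breedings. RNA bisulphite sequencing and tRNA sequencing were each done on 4 WT and 4 NSun2-/- libraries. Pol III chromatin immunoprecipitation (ChIP) was done on 2 WT libraries and 1 NSun2-/- library, each from 3 pooled mice, with 1 input library per genotype. Whole skin was sampled, so that fewer cells of a type and less RNA per cell cannot be told apart.

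After transcription by Pol III a pre-tRNA loses its leader and trailer, gains a CCA end and is modified at many nucleosides. NSun2 methylates cytosines at the junction of the variable loop and the T arm (positions 48 to 50) and C34 of some tRNAs, while Dnmt2 methylates C38 in the anticodon loop of a few tRNAs, ValAAC among them. Cleavage in the anticodon loop, known above all for the ribonuclease angiogenin, leaves 5' fragments and 3' fragments. In ValAAC the first anticodon adenosine is deaminated to inosine, which is read as G.

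The gene sequences are shown first because they set what each assay could tell apart. The anticodon, nucleotide 38 and nucleotides 48 to 50 are in capitals. These genes are 73 nucleotides long, and at the capitals and 3' of them the nucleotide number equals the standard tRNA position.
chr1.trna710-ValCAC: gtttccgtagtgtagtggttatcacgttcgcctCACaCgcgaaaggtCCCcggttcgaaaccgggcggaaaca
chr11.trna208-ValAAC: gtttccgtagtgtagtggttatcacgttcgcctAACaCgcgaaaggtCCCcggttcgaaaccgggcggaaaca
chr13.trna95-ValAAC: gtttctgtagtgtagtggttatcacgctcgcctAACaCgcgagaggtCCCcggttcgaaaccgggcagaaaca
chr19.trna109-ValTAC: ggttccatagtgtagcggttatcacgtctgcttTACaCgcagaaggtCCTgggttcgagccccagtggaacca

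The most common ValCAC and ValAAC sequences differed by the anticodon base alone, and ValTAC stood apart from both. The ValCAC gene chr1.trna710 (chr1:173041574-173041646, plus strand) was identical to 4 other ValCAC genes, and the ValAAC genes chr11.trna208 (chr11:48670139-48670211, plus) and chr3.trna48 differed from it by C34A, where the first letter is the base of chr1.trna710 and positions count from the first nucleotide of the gene. Their first 33 nucleotides were identical, so that a 5' fragment ending at nucleotide 33 belongs to both isoacceptors. ValTAC was 76.7% identical to ValCAC over 73 nucleotides, with 17 substitutions, C50T among them, and shared 27 of the first 33. Other genes carried more substitutions, among them chr17.trna392-ValCAC (G7C, C38T, G41A, C51T and G63T), chr6.trna10-ValCAC (C6T and G67A) and several on chromosome 13: chr13.trna95-ValAAC (chr13:23390650-23390722, plus) carried C6T, T27C, C34A, A43G and G67A, and chr13.trna974-ValAAC carried G26A and C34A. Of the 19 loci none overlapped an annotated exon. chr13.trna93, chr13.trna95, chr13.trna97 and chr13.trna98 lay within an intron of 4930557F10Rik, and the other 15 lay between genes. The 3 ValTAC genes, chr19.trna109 (chr19:12086421-12086493, plus), chr19.trna110 (chr19:12086756-12086828, plus) and a copy on chromosome X (chrX:157204042-157204114, plus), were identical in sequence.

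Several libraries stood apart before any comparison. Cytosines of the Nsun2 transcript were listed at 31, 23, 48 and 43 positions in the WT bisulphite libraries and at 0 in each NSun2-/- library, as the labels have it. The NSun2-/- libraries listed 665049, 110324, 658169 and 385574 cytosines, against 156018 to 196679 in WT, so that replicate 2 was below and the other 3 were above every WT library. Markers of epidermis (Krt5, Krt14), dermis (Col1a1), muscle (Acta1) and fat (Adipoq) were listed in all 8, so that the tissue was a mixture in both genotypes. In tRNA sequencing the total counts ran from 17352126 to 36749727, and counts at tRNA Val genes took 4.67, 5.80, 4.48 and 3.07% in WT and 8.31, 6.65, 8.25 and 19.4% in NSun2-/-, replicate 4 being the highest. Replicates were separate samples by the labels, which do not name the animals of the RNA libraries, and p-values measure the spread between these samples.

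The bisulphite comparison asked which cytosines of tRNA Val depend on NSun2. Cytosines that stay unconverted read as methylated, yet cytosines 5' of the anticodon, where no methylation is known for these enzymes, also stayed unconverted in part. Averaged over these positions, the background of ValTAC was 1.30, 5.39, 6.45 and 13.6% in WT and 22.2, 39.9, 1.54 and 17.7% in NSun2-/-. That of ValCAC was 11.2, 7.13, 11.7 and 27.1% in WT and 55.0, 67.4, 2.45 and 46.4% in NSun2-/-. ValAAC was at 31.2, 28.8, 30.2 and 51.2% in WT and at 61.5, 67.2, 1.27 and 53.7% in NSun2-/-. Thus NSun2-/- replicates 1, 2 and 4 had a higher background than every WT library in all 3 isoacceptors, while NSun2-/- replicate 3 was below every WT library for ValAAC and ValCAC. Among the 15 isoacceptors with such a value, ValAAC ranked second highest in each WT library, and over these 15 the median in NSun2-/- was 24.0, 34.6, 1.30 and 18.6%. The part of this background in the results was not tested, and each position is therefore given also as its excess over the background of the same isoacceptor and library.

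Unconverted reads fell at C48 and C49 in NSun2-/- skin, with at least 1 called gene in each of the 3 isoacceptors. At C48 of ValTAC, with reads summed over its genes, 91.7, 90.3, 88.6 and 91.5% were unconverted in WT and 25.8, 40.7, 20.4 and 23.8% in NSun2-/-. The groups lay far apart, at 90.5 ± 1.41% against 27.7 ± 8.98% (SD, n = 4). C49 of ValTAC went from 76.0 ± 6.18% to 25.1 ± 13% (SD, n = 4). Both fell in edgeR's quasi-likelihood test on unconverted and converted reads (Benjamini-Hochberg adjusted p = 0.0030 and 0.040). They were 2 of the 61 Val positions tested, a share near that over all 454 isoacceptor positions, of which 3.96% were called lower. At C49 the call was lost in 6 of 8 fits without 1 library, with adjusted p up to 0.23.

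**Figure D1:**
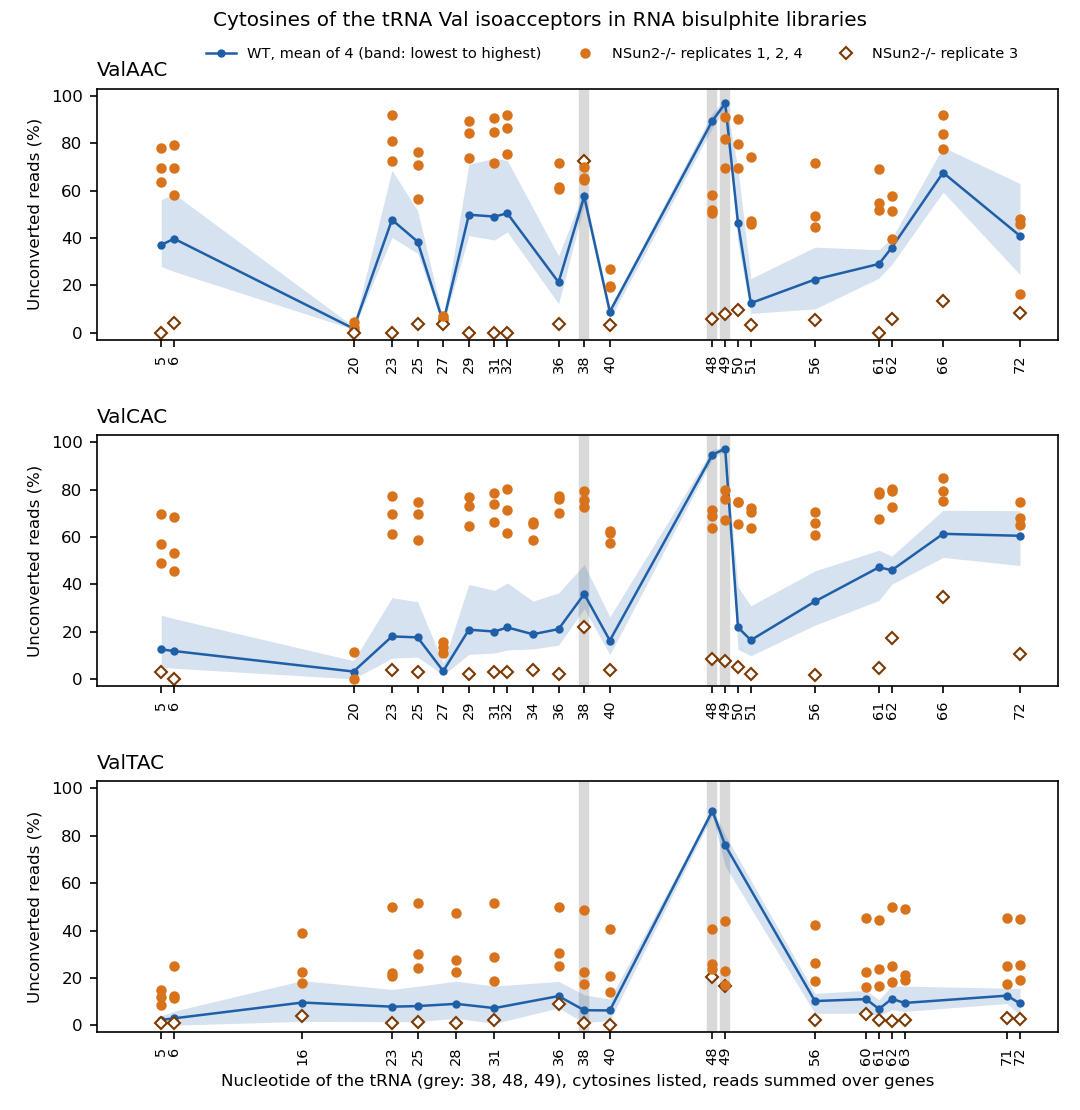
Percent of unconverted reads (vertical axis) at each listed cytosine (horizontal axis, nucleotide number) of ValAAC, ValCAC and ValTAC in RNA bisulphite libraries of skin. The blue line and band give the mean and range of 4 WT libraries, filled circles NSun2-/- replicates 1, 2 and 4, and open diamonds NSun2-/- replicate 3. In WT, C48 and C49 stand above the neighbouring cytosines, and in NSun2-/- replicate 3 they lie between 5.77 and 20.4%.

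C48 of ValCAC was at 94.7, 94.3, 96.9 and 92.8% in WT and at 71.3, 68.9, 8.21 and 63.8% in NSun2-/-. C49 of ValCAC was at 96.7, 97.4, 98.0 and 97.0% in WT and at 75.9, 79.7, 7.46 and 67.3% in NSun2-/-. C48 of ValAAC was at 86.5, 92.6, 88.2 and 90.6% in WT and at 51.9, 58, 5.77 and 50.6% in NSun2-/-. In each case every NSun2-/- library was below every WT library, and replicate 3, the library with little background, was lowest. C49 of ValAAC was at 94.5, 98.8, 97.4 and 96.6% in WT and at 82.0, 91.2, 7.69 and 69.4% in NSun2-/-, so that only a few points separated replicate 2 from WT. None of these 4 passed the test on summed reads (edgeR adjusted p = 0.096 for C48 of both, 0.071 and 0.29 for C49 of ValCAC and ValAAC). Without NSun2-/- replicate 3 the differences at C48 were -26.7 points in ValCAC and -36.0 points in ValAAC, and all 4 positions then passed (adjusted p from 9.1e-06 to 0.0020).

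With the background subtracted, the excess at C48 was 83.8 ± 5.23 points in WT and 7.35 ± 7.98 points in NSun2-/- for ValTAC (SD, n = 4). It was 80.4 ± 9.88 and 10.2 ± 7.81 points for ValCAC, and 54.1 ± 10.4 and -4.38 ± 6.63 points for ValAAC. The genotypes did not overlap, but an excess cannot pass 100 minus the background, and this ceiling was lower in NSun2-/-. For ValCAC it was 45, 32.6 and 53.6 points in NSun2-/- replicates 1, 2 and 4, below the lowest WT excess of 65.7 points, so that these 3 libraries could not have overlapped WT. The ceiling lay below the lowest WT excess at C48 also in 2 NSun2-/- libraries of ValAAC and 2 of ValTAC. No test of this difference is therefore given, and the same limit touches the 204 isoacceptor positions with an excess, of which 20.1% did not overlap and 18.6% were lower in NSun2-/-.

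The excess was therefore also taken as a percent of its ceiling, a scale chosen after the limit was seen. At C48 of ValCAC it was 94.1, 93.8, 96.5 and 90.1% of the ceiling in WT and 36.3, 4.74, 5.90 and 32.4% in NSun2-/-. At C48 of ValTAC it was 89.8 ± 1.53% in WT and 8.15 ± 7.75% in NSun2-/- (SD, n = 4), and at C48 of ValAAC 83.5 ± 4.25% and -13.9 ± 15.5%, values below 0 being positions under the background. At C49 it was 74.3 ± 6.39% and 5.56 ± 7.29% in ValTAC, 96.8 ± 0.82% and 32.0 ± 18.3% in ValCAC, and 94.9 ± 2.89% and 41.7 ± 28.4% in ValAAC. On this scale every NSun2-/- library was below every WT library at both positions in all 3 isoacceptors. Each had p = 0.029 in an exact two-sided permutation test, the smallest that 4 against 4 libraries can give. These p-values were not adjusted for the number of positions. Of the 204 positions 17.6% did not overlap on this scale and 15.7% were lower in NSun2-/-. The scale takes the background as equal at all positions of an isoacceptor, but other cytosines did not lie at 0 on it. In WT, C66 was at 50.2 ± 9.42% in ValAAC and 55.0 ± 6.92% in ValCAC, and C40 of ValAAC at -44.3 ± 27.2% (SD, n = 4). In WT ValTAC the means of the cytosines other than C48 and C49 ran from -0.55 to 6.08%. The part of this unevenness in the values at C48 and C49 was not tested. The excess of C50, which ValTAC lacks, was 10.9 ± 4.71 points in WT ValAAC and 7.48 ± 2.90 points in WT ValCAC (SD, n = 4), and its genotype groups overlapped.

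**Figure D2:**
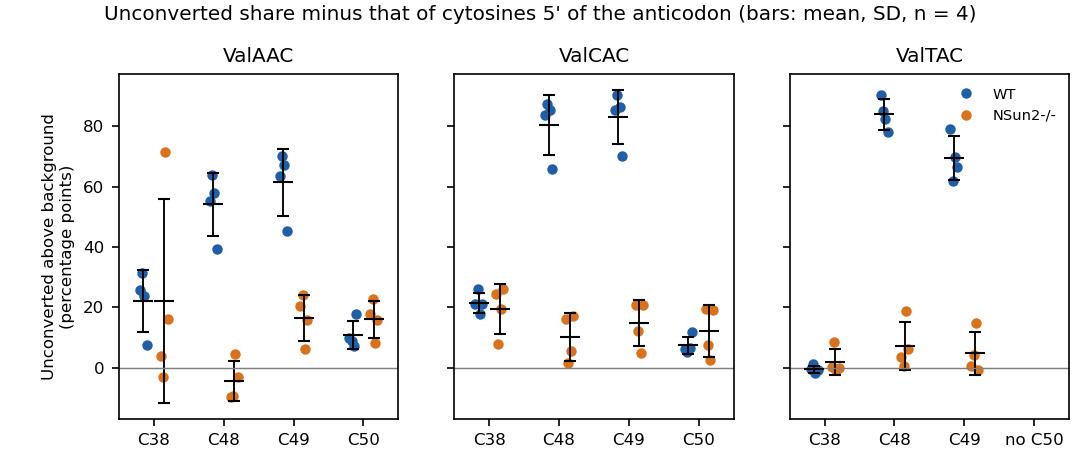
Percentage points of unconverted reads above the mean of the cytosines 5' of the anticodon (vertical axis) at C38, C48, C49 and C50 (horizontal axis) of each isoacceptor. Points are 4 WT (blue) and 4 NSun2-/- (orange) bisulphite libraries, bars give mean and SD, and at C48 and C49 the WT points lie between 39.4 and 90.4 and the NSun2-/- points between -9.69 and 24.0, where a high background lowers the excess that a library can reach.

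A residue of unconverted reads was left at ValTAC where the background was low. In NSun2-/- replicate 3, C48 of ValTAC was unconverted in 70 of 343 reads, or 20.4% (Wilson 95% interval 16.5 to 25.0%), and C49 in 56 of 338 reads, or 16.6% (13 to 20.9%), while the background was 1.54%. In the same library C48 of ValCAC was unconverted in 8.21% of 134 reads (4.65 to 14.1%) and C48 of ValAAC in 5.77% of 52 reads (1.98 to 15.6%). The intervals cover counting error only, of reads without molecular identifiers. In the other NSun2-/- libraries the excess at C48 of ValTAC was 3.63, 0.80 and 6.13 points, below the 18.9 points of replicate 3.

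The 3 identical ValTAC genes did not give the same values. At C49, chr19.trna110 had 96.5, 95.8, 95.3 and 93.8% unconverted reads in the WT libraries, the chromosome X copy had 89.2, 76.2, 88.9 and 90.5%, and chr19.trna109 had 48.9, 39.3, 51.0 and 57.9%. Thus chr19.trna109 was the lowest of the 3 in each of the 4 WT libraries, and it was lowest too at C48, with a mean of 77.3 ± 2.86% against 98.7 ± 0.91% for chr19.trna110 (SD, n = 4). An exact test of 4 paired values cannot pass 0.05, and none is given. Reads of chr19.trna109 also covered its leader: 3 cytosines before its first nucleotide were listed, with a median of 42 reads and 0% unconverted, whereas none of the other positioned Val loci had a listed leader cytosine. In NSun2-/- the C49 values of chr19.trna109 and chr19.trna110 were 20.9 ± 15.6% and 27.3 ± 12.2% (SD, n = 4), and these overlapped. Trailer cytosines were listed at 17 of the positioned loci, beyond where the CCA end would lie in each. Thus at least part of the reads at a locus came from sequence that is absent in mature tRNA. Trailer cytosines were often unconverted. Their median over cytosines and libraries of both genotypes ran from 12.5% at chr6.trna10 to 91.7% at chr3.trna284. It was 17.0% at chr19.trna109, 52.1% at chr19.trna110 and 59.7% at the chromosome X copy. The paper describes Bismark as using reads with a unique best alignment. Under that rule a read of identical genes can be given to 1 copy only where it reaches flanking sequence. This touches the 3 ValTAC genes, 5 ValCAC genes and 2 ValAAC genes that are identical to each other. How far leader or trailer reads bear on these levels was not tested.

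Gene by gene, the calls sat at the same positions. Of 224 Val cytosines tested, 14 were lower in NSun2-/- (edgeR, adjusted p below 0.05 and at least 10 points), where 0.147% of all 122736 cytosines tested were called lower. All 14 were C48 or C49, out of 24 such cytosines tested. They were C48 of chr11.trna208-ValAAC, both cytosines of the ValCAC genes chr1.trna710, chr11.trna204, chr13.trna91 and chr13.trna954, and 5 of 6 in ValTAC, C49 of chr19.trna109 being the one that was not called. A further 18 Val cytosines were higher in NSun2-/-, where 0.114% of all cytosines were. They lay in chr1.trna710-ValCAC (12 cytosines), chr11.trna208-ValAAC (5) and chr13.trna98-ValCAC (1), and 13 of them were 5' of the anticodon. In chr1.trna710 the background over these positions was 5.52, 4.37, 6.38 and 13.2% in WT and 75.5, 78.9 and 67.1% in NSun2-/- replicates 1, 2 and 4. Leaving out NSun2-/- replicate 1 left 9 lower and 7 higher calls, and leaving out NSun2-/- replicate 3 raised the higher calls to 45.

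C38, the Dnmt2 site, was high in ValAAC in both genotypes. It was unconverted in 56.9, 60.3, 54.1 and 58.7% of ValAAC reads in WT and in 65.4, 64.4, 72.5 and 70.1% in NSun2-/-. In ValCAC it was at 32.3, 33.2, 29.7 and 48.3% in WT and at 79.4, 75.4, 21.9 and 72.6% in NSun2-/-, and in ValTAC at 1.04, 6.56, 4.82 and 12.8% and at 22.6, 48.5, 0.92 and 17.6%. None was called between genotypes (edgeR adjusted p = 0.72, 0.47 and 0.60 for ValAAC, ValCAC and ValTAC). Without NSun2-/- replicate 3, C38 of ValCAC and ValTAC passed as higher, by 40.0 and 23.3 points (adjusted p = 0.00031 and 0.0046), in the libraries where the background was higher too. The excess over background was 22.2 ± 10.3 points in WT ValAAC, 21.6 ± 3.34 points in WT ValCAC and -0.38 ± 1.18 points in WT ValTAC (SD, n = 4). As a percent of its ceiling C38 was at 32.8% in WT ValAAC and 25.3% in WT ValCAC, below C66, at 50.2 and 55.0%. In NSun2-/- replicate 3, C38 and C66 were at 72.2 and 12.4% in ValAAC but at 19.9 and 32.8% in ValCAC. The part of uneven background in the excess at C38 was not tested. The high background of ValAAC covers much of its C38 in 7 libraries. In NSun2-/- replicate 3, where it did not, C38 was unconverted in 37 of 51 ValAAC reads (72.5%, Wilson 95% interval 59.1 to 82.9%), in 28 of 128 ValCAC reads (21.9%, 15.6 to 29.8%) and in 3 of 326 ValTAC reads (0.92%, 0.31 to 2.67%). The 3 intervals did not overlap, but they cover counting error within this library alone, and not the spread between samples. The other Dnmt2 substrates, AspGTC and GlyGCC, were at 83.8 and 88.7% in WT and at 92.0 and 86.7% in NSun2-/-. C34 exists in ValCAC alone, where its excess was 4.57 ± 1.29 points in WT and 5.63 ± 12.1 points in NSun2-/- (SD, n = 4).

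The tRNA sequencing comparison asked whether fragments of these tRNAs differ between genotypes. A read sequence was counted once, in the family of isoacceptors on whose genes it fits best. The isoacceptors left opposite ends. Of the ValAAC and ValCAC reads that could be called 5' or 3' fragments (25 to 40 nucleotides, starting at nucleotide 1 or ending in CCA), the 3' share was 0.070, 0.11, 0.076 and 0.12% in WT and 0.017, 0.015, 0.0065 and 0.0050% in NSun2-/-, and the rest were 5'. Every NSun2-/- library was below every WT library in this share, as it was over all families together (3.33, 6.37, 2.32 and 3.27% in WT, 1.51, 0.52, 1.27 and 1.55% in NSun2-/-). Reads ending in CC were not counted as 3' fragments. Among ValAAC and ValCAC reads from nucleotide 39, those ending in CC numbered 925, 2042, 1678 and 1546 in WT and 795, 1408, 732 and 540 in NSun2-/-. Those ending in CCA were fewer, at 441, 911, 725 and 734 in WT and 220, 321, 104 and 144 in NSun2-/-. Of the ValTAC reads, 97.0, 99.2, 96.8 and 98.5% were 3' in WT and 97.5, 86.3, 95 and 91.1% in NSun2-/-. These shares use the counts as deposited. The counts of the abundant ValTAC 3' sequences and of the ValTAC 5' reads were multiples of different common factors. The split without these factors can therefore differ, and it is not given here. Abundant sequences of the families are given here, because they show where each fragment ends, with capitals at bases that differ from chr1.trna710 or, for ValTAC, from chr19.trna109.
ValAAC and ValCAC 1-33: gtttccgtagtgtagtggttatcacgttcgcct
ValAAC and ValCAC 1-32: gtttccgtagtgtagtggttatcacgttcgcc
ValCAC 1-34: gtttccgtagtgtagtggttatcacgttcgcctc
ValAAC 1-33, chr13.trna95: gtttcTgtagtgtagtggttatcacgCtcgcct
ValTAC 39-76: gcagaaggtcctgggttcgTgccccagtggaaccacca

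5' fragments shared by ValAAC and ValCAC were more abundant in NSun2-/- skin. They reached 54540, 69068, 56501 and 36635 CPM (counts scaled to the same TMM-normalized size of the 5' class in each library) in WT and 90329, 61781, 102569 and 257546 CPM in NSun2-/-. The groups overlapped, since NSun2-/- replicate 2 was below WT replicate 2, and NSun2-/- replicate 4 was the highest. The log2 fold change was 1.24 ± 0.38 (SE), and the family was called (edgeR adjusted p = 0.030), in a class where 16.3% of 49 families were called higher and 16.3% lower and the median log2 fold change was -0.13. The call was lost in 4 of 8 fits without 1 library (WT replicate 2, 3 or 4, or NSun2-/- replicate 3), where adjusted p lay between 0.059 and 0.080, and the log2 fold change was 0.72 without NSun2-/- replicate 4 (adjusted p = 0.040).

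Reads that fit ValAAC genes best rose too. The most abundant of them matched chr13.trna974, with G26A, and chr13.trna95, with C6T and T27C. G26A reads from chr13.trna974 and misreads of nucleotide 26 in the shared fragment cannot be told apart. The family stood at 121, 116, 101 and 93.8 CPM in WT and 243, 157, 165 and 559 CPM in NSun2-/-. Every NSun2-/- library was above every WT library. How many of all families of 5' fragments had groups without overlap was not counted. The log2 fold change was 1.38 ± 0.39 (SE, edgeR adjusted p = 0.030), and without NSun2-/- replicate 4 it was 0.91 (adjusted p = 0.036). The call was lost without WT replicate 2, 3 or 4 (adjusted p 0.059 to 0.079). A further small family, which ValAAC and ValCAC share with a gene that is named GlyACC (chr11.trna205), was at 11.7 to 20.3 CPM in WT and 16.3 to 67.6 CPM in NSun2-/-, with a log2 fold change of 1.38 (adjusted p = 0.030).

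ValCAC and ValTAC 5' fragments were not called. ValCAC reads, which are those reaching C34 or carrying a change found in ValCAC genes alone, stood at 1837, 2993, 1639 and 1099 CPM in WT and 2218, 880.0, 2133 and 5160 CPM in NSun2-/-. The groups overlapped at both ends (log2 fold change 0.46 ± 0.47 SE, edgeR adjusted p = 0.50), and without NSun2-/- replicate 4 the fold change turned to -0.07. With the deposited gene names in place of best placement, which puts the shared reads with ValCAC, it was 1.54 (adjusted p = 0.0048). ValTAC 5' fragments were rare, at 195, 105, 246 and 186 counts in WT and 174, 792, 246 and 228 in NSun2-/- (log2 fold change 0.41 ± 0.32 SE, adjusted p = 0.35). The log2 ratio of ValTAC to ValAAC and ValCAC 5' reads was -12.2 ± 0.61 in WT and -12.9 ± 0.96 in NSun2-/- (SD, n = 4), a difference of -0.65 that did not pass an exact two-sided permutation test (p = 0.34). A difference in fragment change between the isoacceptors was therefore not shown at this depth.

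**Figure D3:**
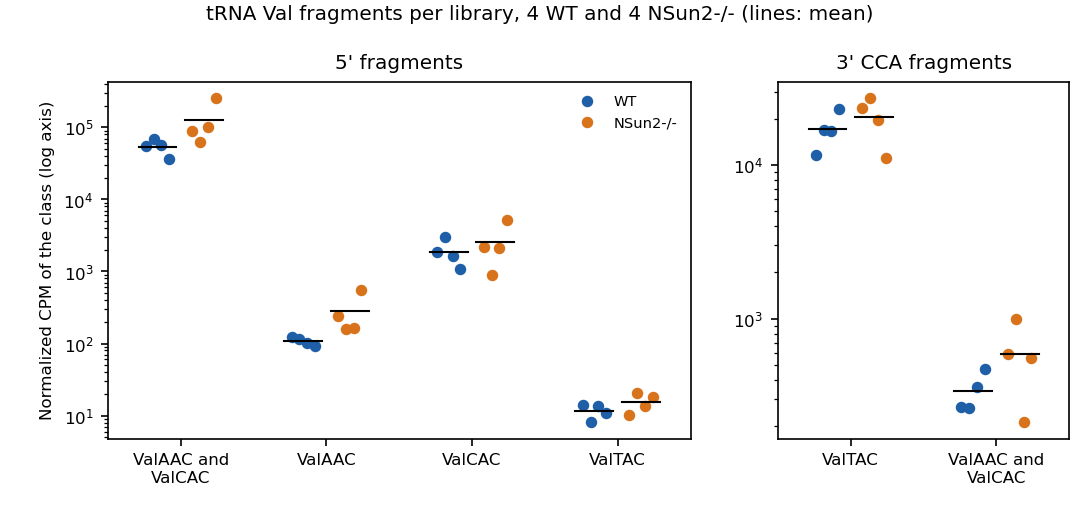
Normalized CPM on a log axis for tRNA Val 5' fragments (left) and 3' fragments ending in CCA (right), by family. Points are 4 WT (blue) and 4 NSun2-/- (orange) tRNA sequencing libraries and lines are means. Of the 6 families shown the ValAAC family of 5' fragments is the one whose genotypes do not overlap, and the share over all families was not counted.

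Of the Asp, Glu, Gly, His and Lys families given here, 1 rose more than the shared ValAAC and ValCAC family. By log2 fold change the called Val families ranked 2, 3 and 4 among the 49 families of 5' fragments. In the same fit the family shared by GlyCCC and GlyGCC rose by a log2 fold change of 1.48 (edgeR adjusted p = 0.0013) and GlyCCC fell, at -1.02 (adjusted p = 0.030). AspGTC was at -0.91 (edgeR adjusted p = 0.14) and GluTTC at 0.21 (adjusted p = 0.57). GlyGCC, the most abundant, had a log2 fold change of -0.29 (edgeR adjusted p = 0.084), GluCTC of 0.02 (adjusted p = 0.91), HisGTG of 0.78 (adjusted p = 0.031) and LysCTT of -0.58 (adjusted p = 0.059). Across the 8 libraries the profile most like that of the shared ValAAC and ValCAC family, by the root mean square difference of centred log2 CPM among 48 families, was the GlyACC-named family (0.24), followed by ValAAC (0.27) and AsnGTT (0.40). For ValTAC it was the family of AlaAGC, AlaCGC and AlaTGC (0.32), then GluTTC (0.35) and MetCAT (0.41).

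ValAAC and ValCAC 5' fragments ended mainly at the cut between nucleotides 33 and 34, next to the anticodon, in both genotypes. Of the ValAAC and ValCAC 5' reads, 85.8, 90.1, 89.9 and 88.8% ended at nucleotide 33 in WT and 92.0, 90.7, 92.4 and 92.9% in NSun2-/-. Reads ending at nucleotide 34 made up 3.13, 4.12, 2.76 and 2.80% in WT and 2.29, 1.35, 1.99 and 1.89% in NSun2-/-. Groups did not overlap at either end, and they did not at 6 of the 16 ends from nucleotide 25 to 40 (37.5%), 1 higher and 5 lower in NSun2-/-. Each of these had p = 0.029 in an exact two-sided permutation test and 0.076 after Benjamini-Hochberg adjustment over the 16 ends, and so did not pass. ValTAC 5' reads, counted here from 20 nucleotides, ended mostly elsewhere, at nucleotide 23 (153 to 279 counts in WT, 177 to 276 in NSun2-/-) and nucleotide 30 (42 to 126 in WT, 72 to 399 in NSun2-/-).

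3' fragments of tRNA Val did not differ by a call, and their direction depended on the scaling. ValTAC reads ending in CCA began most often at nucleotide 39, 36 or 55. Those of 25 to 40 nucleotides stood at 11559, 16933, 16638 and 23144 CPM of the 3' class in WT and 23637, 27381, 19543 and 11067 CPM in NSun2-/-. The groups overlapped throughout (log2 fold change 0.26 ± 0.30 SE, edgeR adjusted p = 0.56), in a class where 7.32% of 41 families were called (2.44% higher and 4.88% lower). The 3' class as a whole held 454464 to 845042 counts in WT and 173788 to 247154 in NSun2-/-. Scaled by the total of all tRNA counts, ValTAC came to -1.29 (adjusted p = 0.044), a scaling that moved the median of all 41 families by -1.59 and under which 21 of the 41 were called lower and 0 higher. Relative to that median ValTAC was higher by both scalings, at 0.26 against 0.04 and at -1.29 against -1.54. The shared ValAAC and ValCAC family had a log2 fold change of 0.80 ± 0.48 (SE, adjusted p = 0.29), or -0.76 by total scaling. The family shared with the GlyACC-named gene was at -1.19 ± 0.48 (SE, adjusted p = 0.10). Mature Val tRNAs were barely read: ValAAC and ValCAC had 0 to 81 counts a library, in multiples of 27, and ValTAC 13 to 78 counts, in multiples of 13, which leaves at most 6 steps of counting. No mature family of 17 was called by edgeR, with 4 at an unadjusted p under 0.05 and 0 by DESeq2, and neither Val family was among these.

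Among single read sequences, the called increases mostly carried a base other than the common G at nucleotide 7. Among 415 Val sequences tested, 8 were called higher and 1 lower (edgeR, adjusted p below 0.05), where 1.56% and 1.64% of all 6902 sequences were (3.2% in either direction). The 8 increases were a share of the 415 near that over all sequences. Of them, 7 carried a base other than G at nucleotide 7, and the other one was the chr13.trna95-ValAAC fragment. How many of the 415 carried such a base was not counted. The increases with such a base that are printed below are variants of the same 33-nucleotide fragment. Of the 7, the one with C at nucleotide 7 alone matches the gene chr17.trna392-ValCAC without a mismatch, and a gene-encoded base and a misread cannot be told apart there. Over the 292 sequences shared by ValAAC and ValCAC the median log2 fold change was 0.92 and 251 were positive, whereas over 46 ValTAC sequences it was -0.91 and 13 were positive, against -0.03 over all 6902. Leaving out WT replicate 2 left 0 higher calls, and leaving out NSun2-/- replicate 1 left 0 lower calls. Sequences that were called are given here, with capitals at bases that differ from chr1.trna710.
ValAAC and ValCAC 1-33, G7T: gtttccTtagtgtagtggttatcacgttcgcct
ValAAC and ValCAC 1-33, G7A: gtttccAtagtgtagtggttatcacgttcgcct
ValCAC 1-33, G7C, as in chr17.trna392: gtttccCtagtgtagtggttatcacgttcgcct
ValAAC, ValCAC and the GlyACC-named gene 39-76, A58T: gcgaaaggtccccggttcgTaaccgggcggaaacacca

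The G7A sequence was at 64.3, 85.0, 93.5 and 44.4 CPM in WT and 269, 356, 327 and 685 CPM in NSun2-/-, without overlap (log2 fold change 2.51 ± 0.41 SE, edgeR adjusted p = 0.015). G7T stood at 101, 141, 145 and 83.0 CPM in WT and 366, 480, 450 and 941 CPM in NSun2-/- (2.25 ± 0.39, adjusted p = 0.020). The 33-nucleotide sequence without a mismatch was at 29575, 39531, 41972 and 22783 CPM in WT and 71979, 77469, 76706 and 203179 CPM in NSun2-/-. Its groups did not overlap either, yet it was not called (log2 fold change 1.68 ± 0.43 SE, adjusted p = 0.072). Over all 5' reads of both isoacceptors, nucleotide 7 was read as other than G in 0.57, 0.56, 0.60 and 0.59% in WT and in 0.87, 1.07, 1.04 and 0.81% in NSun2-/-. Of 33 nucleotides scanned this way, 4 had groups without overlap (12.1%), nucleotide 7 being the one that was higher, by 0.37 points (exact two-sided permutation test p = 0.029, 0.17 after adjustment over the 33). The chr13.trna95-ValAAC fragment printed above, with C6T and T27C, was called too, at 29.8, 24.1, 29.6 and 33 CPM in WT and 120, 109, 43.8 and 227 CPM in NSun2-/- (log2 fold change 2.10 ± 0.47 SE, adjusted p = 0.046). The decrease was the 39-76 fragment with A58T, at 5.81 to 15.5 CPM in WT and 1.2 to 2.02 CPM in NSun2-/- (-2.64 ± 0.47 SE, adjusted p = 0.020). The 39-75 fragment with A58T, which ends in CC, was more abundant, with means of 27.5 CPM in WT and 15.0 CPM in NSun2-/-. It was not called (log2 fold change -0.87 ± 0.34 SE, edgeR adjusted p = 0.23).

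Bases read at modified nucleosides gave a second view of the same molecules. Among 5' reads that reach nucleotide 34, C (ValCAC) was read in 90.4 ± 1.14% in WT and 89.6 ± 1.06% in NSun2-/- (SD, n = 4). G, which inosine of ValAAC would give, was read in 9.40, 8.51, 8.68 and 8.42% in WT and 9.55, 11.7, 10.2 and 9.43% in NSun2-/-. Most of these reads end at nucleotide 34, and a misread last base of ValCAC cannot be told apart from inosine. Nucleotide 33, where most 5' reads end, was read as other than T in 6.38 ± 0.86% in WT and 5.64 ± 0.53% in NSun2-/- (SD, n = 4). Every NSun2-/- library was above every WT library for G, the nearest at 9.43 and 9.40%, with means of 10.2 ± 1.02% against 8.75 ± 0.45% (SD, n = 4). A, the unmodified reading, was at most 0.070% in each library. Nucleotide 26, a dimethylguanosine in many tRNAs, was misread in a share that hardly moved: of reads with a called base there, G was read in 95.3 ± 0.11% in WT and 95.2 ± 0.11% in NSun2-/- (SD, n = 4). At A58, a methyladenosine of the T loop, ValTAC 3' reads kept A in 2.38, 3.19, 3.46 and 2.60% in WT and 1.40, 1.88, 1.08 and 1.69% in NSun2-/-, without overlap, and ValAAC and ValCAC 3' reads kept it in 20.4 ± 1.85% and 21.9 ± 4.60% (SD, n = 4). The bases at nucleotides 34 and 58 were singled out after their values were seen and were not tested.

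Pol III binding asked whether transcription of these genes differed. Of the 106 Val loci, 10 (9.43%) were bound in WT, meaning 10 or more reads in WT replicates 1 and 2 alike and a level 2-fold over input or higher, against 6.46% of all 3283 loci. These were 4 of 56 ValAAC, 3 of 37 ValCAC and 3 of 13 ValTAC loci. The strongest ValCAC locus, chr11.trna204 (chr11:48632044-48632116, plus), had 135 and 319 reads in the WT libraries, 429 in NSun2-/-, and 2 and 3 in the WT and NSun2-/- inputs. chr3.trna48-ValAAC had 153 and 235 reads in WT and 386 in NSun2-/-. chr19.trna109-ValTAC had 108 and 240 reads in WT and 405 in NSun2-/-, and its neighbour chr19.trna110 had 41 and 86 in WT and 121 in NSun2-/-, so that the copy with the lower C49 carried more Pol III reads. At the loci chr13.trna91, chr13.trna97 and chr3.trna284, all ValCAC, both WT libraries had 10 reads or more, but the input was too near.

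**Figure D4:**
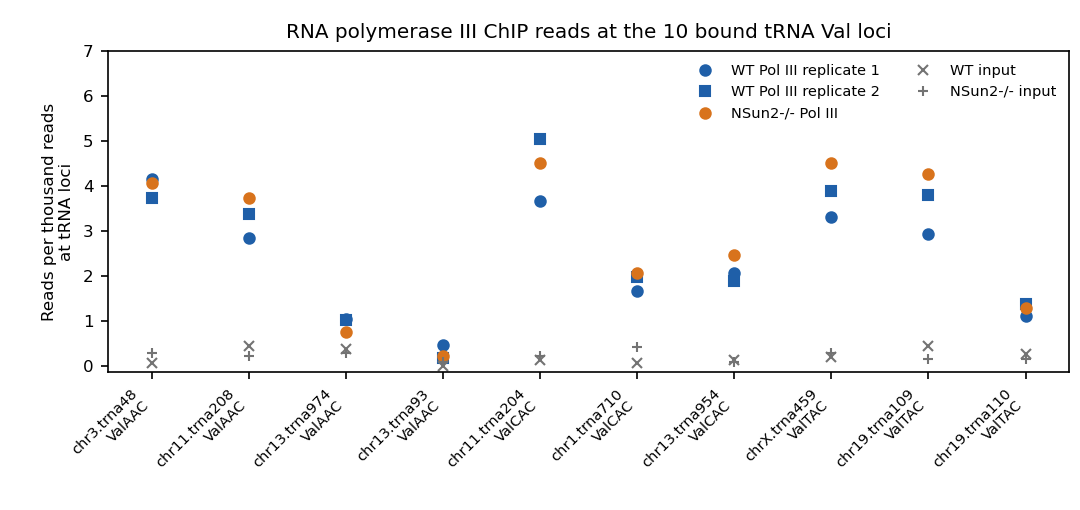
Reads relative to all reads at tRNA loci, on the scale printed on the vertical axis, at each of the 10 bound tRNA Val loci (horizontal axis) in 2 WT Pol III ChIP libraries (blue), 1 NSun2-/- Pol III ChIP library (orange) and the 2 inputs (grey). The inputs lie below the Pol III points of the same locus, with the smallest gaps at chr13.trna974 and chr13.trna93.

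Between genotypes, log2 fold changes at the 10 bound loci ran from -0.24 to 0.55, with a median of 0.33 and 8 of 10 positive. Over all 30 Val loci tested the median was -0.22 with 14 positive, over the 14 ValAAC loci -0.82 with 4 positive, and over all 645 loci -0.28 with 268 positive. None of the 30 Val loci tested passed (edgeR adjusted p 0.88 to 0.92 at the bound loci), nor did any of 645 loci, with 10 of 645 and 1 of the 30 at an unadjusted p under 0.05 and 0 by DESeq2. The NSun2-/- group was 1 library, assumed to vary like WT. Totals at tRNA loci were 36866, 63136 and 95112 reads. ValAAC, ValCAC and ValTAC took 39.7, 36.7 and 23.6% of Val reads in WT replicate 1, 35, 37.1 and 27.9% in WT replicate 2 and 32.5, 37.1 and 30.5% in NSun2-/-. ValTAC, whose 5' fragments were rare, thus had the smallest share of Pol III reads in each library but was not rare there.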

How the data were processed

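The deposited bisulphite files give, for each cytosine, converted and unconverted read counts and the percent unconverted, made by the authors with Bismark 0.7.6. The listed positions plus 1 fell on C or G of mm9 in 100% of cases, so mm9 was used, although the study's methods name a later build. The deposited tRNA and Pol III tables hold read counts per row or locus. The authors aligned tRNA reads with Bowtie and shared reads with several matches among loci, and DESeq is named per the labels. These shared counts are not independent: 298 of 1440 Val rows had counts with a common factor above 1.

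Here the counts of each read sequence were added over the genes listing it, with common factors kept in the main fits. The sequence was then placed on positioned tRNA genes with at most 4 mismatches. Of 1183 sequences listed at Val genes, 975 fitted Val genes best, 176 also or only other isotypes, and 32 none. Families of 5' fragments, 3' fragments (25 to 40 nucleotides) and mature tRNAs were tested with edgeR 4.0.16 (TMM, quasi-likelihood, R 4.3.3), Pol III loci likewise, and cytosines with 10 reads or more in 3 libraries of each genotype by edgeR on unconverted and converted reads. Benjamini-Hochberg adjusted p below 0.05 was a call, for cytosines with a difference of 10 points or more. Exact tests used scipy 1.17.1, where the smallest p for 4 against 4 is 0.0286. Scripts were tested on simulated data. DESeq2 1.42.0, limma 3.58.1, other scalings, filters, lengths and left-out libraries were tried.

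The members, gene lists and tests were chosen with earlier results of these data known. Named were all Val families, Val loci with a call or 10 Pol III reads in both WT libraries, the 5 most abundant read sequences per family with up to 5 called increases and 5 decreases, positions 34, 38, 48, 49 and 50 and other called cytosines. The excess as a percent of its ceiling, the leader and trailer, and the reads at nucleotides 7, 26, 34 and 58 were picked or added once their values had been seen. The locus on chromosome X was found by sequence, as were 6 others, and its deposited name was not assigned.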

Additional observations from a re-analysis of the deposited data

Results flagged for a closer look

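Of 78 groups of 4 libraries checked, 14 held a library far from the other 3 by Dixon's criterion, which chance meets in about 1 in 20 groups. WT replicate 4 stood apart in the bisulphite background of ValAAC (51.2%), at C50 of ValAAC (69.0% unconverted) and C34 of ValCAC (32.9%), and, above background, at C48 (65.7 points) and C50 (11.8 points) of ValCAC. NSun2-/- replicate 3, the library with little background, stood apart from the other NSun2-/- libraries at C48 of ValAAC (5.77%) and at C34 (3.57%), C38 (21.9%), C48 (8.21%) and C50 (5.19%) of ValCAC. NSun2-/- replicate 2 was the highest of its group above background at C38 of ValTAC (8.57 points). In tRNA sequencing, NSun2-/- replicate 4 had the highest share of counts at Val genes (19.4%). The family shared with the GlyACC-named gene had a high library among its 5' fragments (WT replicate 2, 20.3 CPM) and among its 3' fragments (NSun2-/- replicate 2, 995 CPM). The part of depth or handling in these values was not tested.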

How the results depend on the processing

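Of 367 alternative values over 28 results, 277 kept their direction and side of the threshold. 5' fragments of ValAAC and ValCAC gave a log2 fold change of 1.05 with the replicate block and 1.16 at 30 to 36 nucleotides, neither past the threshold (edgeR adjusted p = 0.098 and 0.065), and 0.72 to 1.47 without 1 library. Without 1 library the ValCAC value ran from -0.074 to 0.84. Scaling by the library total turned the 3' values to -0.76 (ValAAC and ValCAC) and -1.29 (ValTAC), and leaving out mismatched reads to -0.16 and -0.41.

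Higher and lower Val read sequences numbered 42 and 7 by DESeq2, 0 and 0 with the replicate block, 3 higher without the low-count filter, 3 lower by total scaling, and 0 to 7 and 0 to 4 without 1 library. Val cytosines called lower numbered 6 at 30 reads, 3 by limma and 9 to 18 without 1 library, and those called higher 0, 10 and 7 to 45. Of isoacceptor positions, 1 was lower with the replicate block and 1 to 6 without 1 library. C49 of ValTAC differed by -50.9 points with the block (edgeR adjusted p = 0.19).

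Above background, C38 differed by -0.0057 points in ValAAC and -2.04 points in ValCAC, and C48 and C49 of ValTAC by -76.5 and -64.5 points. As a percent of the ceiling, added after the data were seen, C38 of ValAAC differed by -5.61 points, C48 by -97.3 points in ValAAC, -73.8 points in ValCAC and -81.7 points in ValTAC, and C49 of ValTAC by -68.7 points. Against NSun2-/- replicate 3 alone, a value with no test, C38 differed by -14.0 points in ValCAC and -5.40 points in ValTAC, C48 and C49 by -83.7 and -89.1 points in ValAAC and by -86.5 and -89.8 points in ValCAC. Without 1 library C48 and C49 ran from -53.4 to -36.0 and from -43.8 to -15.9 points in ValAAC, and from -47.7 to -26.7 and from -47.1 to -23.0 points in ValCAC, and C49 of ValTAC from -57.2 to -48.0 points. The cause of these shifts was not tested.

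Replicate numbers were shared between genotypes, but same-numbered libraries did not deviate together (correlations -0.69 to 0.12 over 5' families and -0.43 to 0.40 over cytosine positions), so the replicate block does not stand for a pairing. Depth limits mature tRNAs, ValTAC 5' fragments and ValAAC cytosines of NSun2-/- replicate 3, among others.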
